A study of Mus musculus with 48 samples.

Results

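The 12 samples described here are the O4+ cells of pups that received only PBS, 6 taken at postnatal day (P) 5 and 6 at P10, of 48 samples in all. They were chosen by their labels alone, and every non-control probe of their arrays was analysed. O4 is a sulfated glycolipid antigen on the surface of late oligodendrocyte progenitors (OPCs) and of oligodendrocytes, and anti-O4 magnetic beads enriched these cells from dissociated brains of male swiss mice. PBS was injected into the peritoneum from P1 to P4 and a last time at P5. The P5 cells were collected 2 h after that injection according to the labels, and the P10 cells 5 days later, with no injection in between. The study's methods give the strain as OF1, a longer interval before collection at P5 and several brains pooled per sample, so each sample stands for a pool rather than a pup. The free-text description of the P10 samples repeats P5, whereas their title, source and developmental stage give P10, which was used. For comparison, 12 PBS samples of CD11B+ cells, which by the study's methods were sorted in sequence from the same animals, and 12 O4+ samples of pups given interleukin-1 beta (IL1B, 10 ng/g on the same schedule) were read in the same way. The labels name no transgene or deletion in any group. The comparison of P10 with P5 asks what the lineage does over these days when it is left uninflamed.

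OPCs divide, migrate and express the platelet-derived growth factor receptor Pdgfra and the proteoglycan Cspg4. They leave the cell cycle, pass through a premyelinating stage, and then make myelin, a stack of membrane built from a few abundant proteins, galactolipids and cholesterol. Transcription factors such as Olig2 and Sox10 mark the whole lineage, Myrf and Nkx6-2 come on with myelin formation, and Id and Hes proteins hold differentiation back. Microglia, the resident immune cells of the brain, carry CD11B and border the oligodendrocytes throughout this period.

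The values below are background-subtracted intensities of 1-colour Agilent arrays on a log2 scale after quantile normalisation over the 24 O4+ arrays. Differences are log2 P10 minus P5 from limma, with Benjamini-Hochberg adjustment over all 55681 probes. A call needed a ratio of group medians over 1.5 and an adjusted p below 0.05. Each gene was read by 1 probe, the one with the highest mean signal. The largest rises and falls and the genes seen at 1 age alone were instead taken from all probes. Levels of different probes cannot be set against each other. With 6 arrays an age, p-values measure the spread between these pools. The 6 P5 arrays lay on slides 1 and 2 and the 6 P10 arrays on slides 4 and 5, and no slide or scan day held both ages, so age and array batch cannot be told apart. In sorted cells measured in bulk, fewer cells of a type and less RNA per cell cannot be told apart either.

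Between 55.8% and 62.5% of spots were well above background on the P5 arrays and between 56.9% and 59.7% on the P10 arrays. Pairs of arrays of the same age correlated at 0.983 to 0.994 and arrays of different ages at 0.971 to 0.985, and no array stood apart by correlation. Replicate 6 at P10, the one P10 array on slide 5, was nevertheless the outermost of its group by a wide gap in 18 of the 256 gene values tested for outliers, and without any 1 array the calls ran from 4076 to 4511 higher and from 4592 to 5012 lower. Of the 55681 probes, 4380 (7.87%) were called higher at P10 and 4997 (8.97%) lower, and with normexp background correction 2248 higher and 2537 lower. In 3271 of the probes called higher and 3554 of those called lower, the 6 P10 arrays did not overlap the 6 P5 arrays. The call itself favours such separation, and its share among all probes is not given here. A fitted change of more than 16-fold was found for 51 probes called higher and 4 called lower. Scaling each array to its 75th percentile instead of quantile normalisation moved the median change of all probes from 0.02 to 0.22 and the calls to 5735 higher and 4591 lower, so small falls and small rises are stated below relative to the quantile scale. With 1 probe for each of 24038 genes, 2017 genes (8.39%) were called higher and 2955 (12.3%) lower, and the median change was -0.01. These 2 shares are the background for the gene lists that follow.

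Genes of myelin and of mature oligodendrocytes made up 9 of the 15 largest rises. Among probes well above background on all 12 arrays and separated between the ages, the 15 included, by the ratio of medians, Mobp, S1pr5, Ermn, Tmem125, Etnk2, Cldn14, Pdlim2, Mog, Mal, Arc, Aspa, Prima1, Tppp and Kndc1, from 270-fold for Mobp to 19.3-fold for Kndc1 by fitted means. The Mobp and Ermn probes here are not the brightest of their genes, and the brighter Ermn probe, given below, was not called. Tmem125, a membrane protein gene, rose by 5.36 log2 units (SE 0.16, adjusted p = 1.3e-09). In CD11B+ cells it was well above background on no P5 array and on all 6 P10 arrays. Etnk2, an ethanolamine kinase of phospholipid synthesis, rose by 5.34, Cldn14, a claudin, by 5.12, Prima1, which anchors acetylcholinesterase to the membrane, by 4.44, and Kndc1 by 4.27 log2 units. Arc, best known as an activity-regulated gene of neurons, lay from 6.35 to 7.29 at P5 (median 7.02) and from 11.31 to 12.06 at P10 (median 11.52). Its rise of 4.64 log2 units (SE 0.18, adjusted p = 1e-08) left no overlap between the ages, and it was the one immediate early gene that rose.

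Of the 15 largest falls, 7 were chemokines, cytokines or Itgax, which is in the complement list. They comprised the chemokines Cxcl1, Cxcl10, Ccl3 and Ccl4, the cytokines Il1b and Tnf, the integrin Itgax, the immediate early genes Egr1 and Egr2 and the phosphatase Dusp2, which inactivates MAP kinases, with Gem, Ppp1r3b, Gxylt2, Zfp791 and Gm9900. Ppp1r3b, a glycogen-targeting subunit of protein phosphatase 1, fell by 3.10 log2 units (SE 0.15, adjusted p = 4e-08). Dusp2 fell by 2.97, the GTPase Gem by 2.71 and the zinc finger gene Zfp791 by 2.99 log2 units. For Gxylt2 the fall of 3.17 was seen on 1 of its 3 probes, and the median over the 3 probes was a rise of 0.34, so its direction is uncertain.

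Some genes crossed the detection limit. Well above background on all 6 P10 arrays and on no P5 array were 63 probes called higher, and the reverse held for 130 called lower. The 5 genes with the highest P10 signal among the first were Itgad, an integrin alpha chain, at least 47.6-fold higher, Il23a, a cytokine subunit, at least 44.9-fold, Rasal1, a Ras GTPase-activating protein, at least 39.7-fold, Gp2 at least 32.6-fold and Klk6 at least 27.4-fold. These are bounds, the P10 mean against the lowest signal well above background on each P5 array. In the other direction Gm6377 was at least 6.85-fold lower at P10, Neurl3 at least 4.4-fold, the collagen gene Col19a1 at least 3.81-fold and Irf4 at least 2.97-fold, although the fall of Irf4 was not called with normexp. For Hmga2, a chromatin protein of fetal cells, this probe was at least 3.58-fold lower, and its brighter probe fell by 1.94 log2 units (SE 0.08, adjusted p = 1.7e-08).

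**Figure D1:**
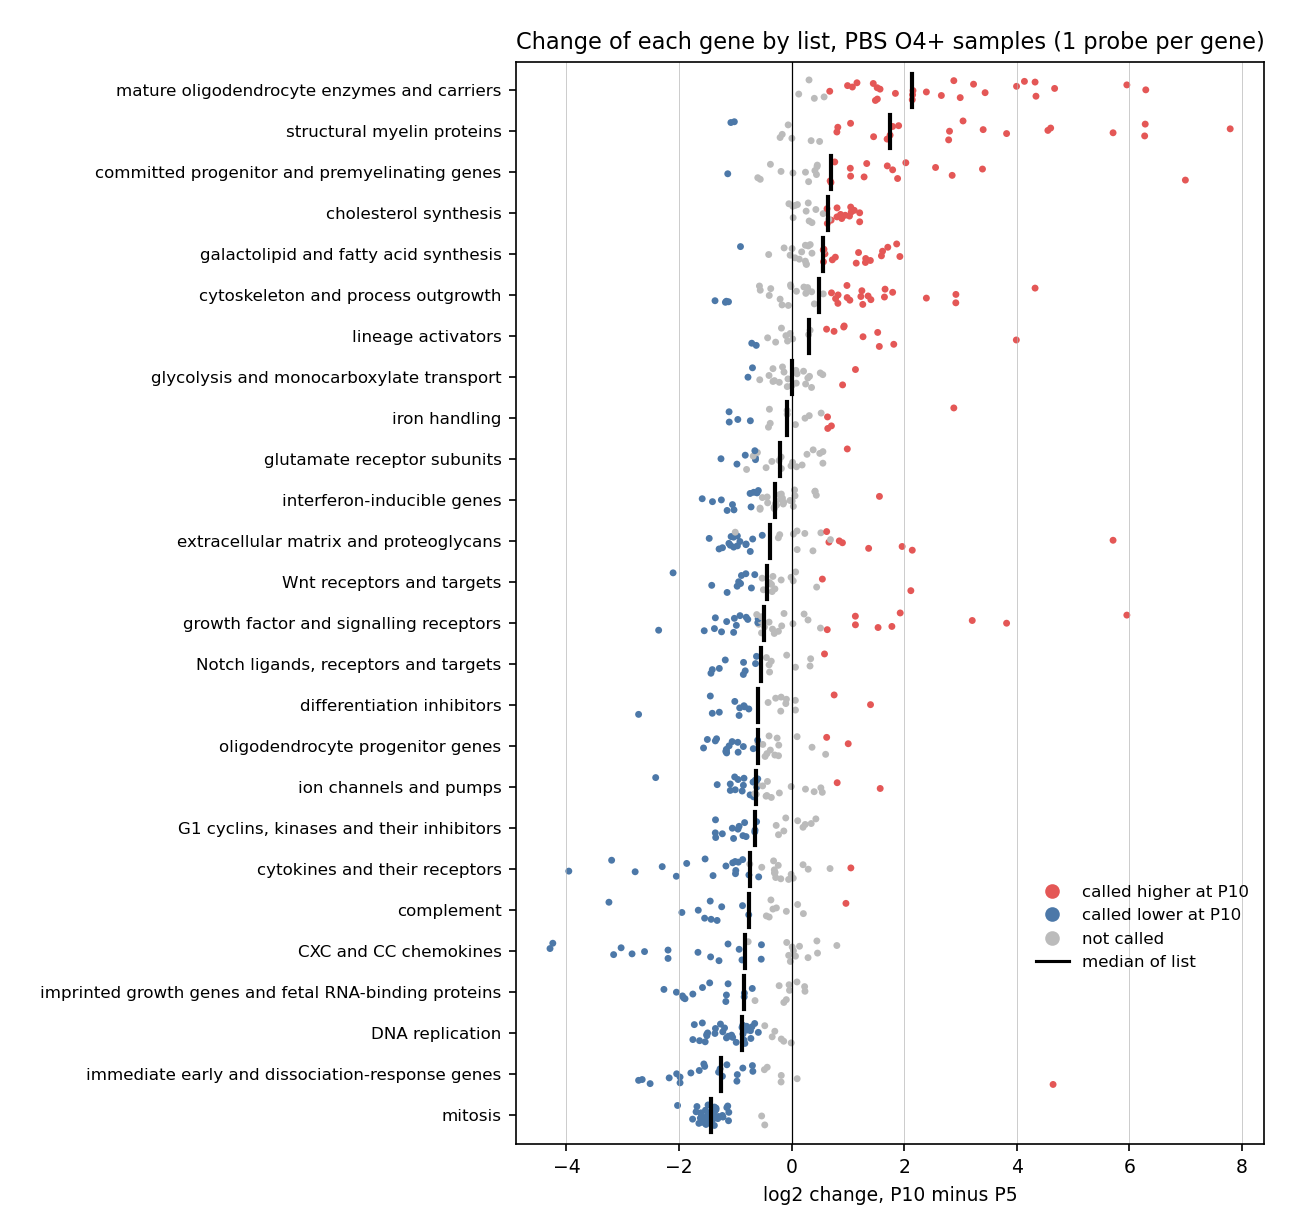
Log2 change from P5 to P10 (horizontal axis) of each gene in 26 lists, in PBS O4+ samples, 6 an age. Red points were called higher, blue points lower and grey points not called, and black bars are the medians of the lists. The medians run from -1.43 for mitosis to 2.15 for mature oligodendrocyte enzymes and carriers.

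The label of the cells was checked against markers. The defining genes of the oligodendrocyte lineage were well above background on all 12 arrays. Gpr17, a receptor of late OPCs and premyelinating cells, lay from 18.18 to 18.38 at P5 (median 18.26) and from 18.14 to 18.42 at P10 (median 18.28), a difference of 0.02 (SE 0.06, adjusted p = 0.77). The difference was 0.30 (SE 0.10, adjusted p = 0.032) for Sox10, 0.02 (SE 0.06, adjusted p = 0.83) for Olig1 and -0.43 (SE 0.07, adjusted p = 0.00058) for Olig2, and none was called, although Sox10 was with 75th percentile scaling. Of the 9 lineage markers 5 were called higher, among them Enpp6 and the myelin genes Cnp, Mbp and Mag. Normalised over all 48 arrays, the summed signal of the 9 ran from 19.4 to 19.5 on the P5 arrays and from 20.2 to 20.4 on the P10 arrays. In CD11B+ cells it ran from 14.1 to 14.9 and from 15.8 to 16.7. The signal of oligodendrocyte genes was thus lower in every CD11B+ sample than in any O4+ sample, and it was higher at P10 in both sorts.

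Microglial genes were present in the O4+ samples and lower at P10. Of 15 microglial markers, all well above background on all 12 arrays, 13 were called lower and 1 higher, with a median of -1.24. Csf1r, the receptor that microglia need to survive, lay from 15.66 to 16.31 at P5 (median 16.12) and from 14.74 to 15.55 at P10 (median 15.05). It fell by 1.01 log2 units (SE 0.15, adjusted p = 0.0002), and the ages did not overlap. Cx3cr1, the fractalkine receptor, fell by 1.24, Trem2, a lipid-sensing receptor, by 1.60 and P2ry12, a purinergic receptor, by 1.01. Itgam, which encodes CD11B itself, was the marker called higher, by 0.97, on 2 of its 3 probes, and for Tmem119 the difference was -0.09 (SE 0.14, adjusted p = 0.67). In the CD11B+ samples the median change of the same markers was 0.28. On the scale of all 48 arrays their summed signal in O4+ cells ran from 17.8 to 18.3 at P5 and from 17.6 to 18.0 at P10. In CD11B+ cells it ran from 20.3 to 20.4 and from 20.6 to 20.8. The ranges of the summed signal in O4+ cells thus overlapped between the ages. These values stand beside every immune, immediate early and cell cycle result below, and their part in those results was not tested.

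Markers of other cells moved as well. Of 10 markers of pericytes and fibroblasts, 8 were called lower, with a median of -1.11, although 2 of the 8, Cspg4 and Dcn, are also genes of the OPC list. Of 8 markers of neural progenitors and ependyma 5 were called lower and 1 higher, with a median of -0.89, and of -0.49 with normexp. Their summed signal ran from 15.4 to 16.3 at P5 and from 14.9 to 15.3 at P10. Of 11 endothelial markers 5 were lower and none was higher, among them Cldn5, the claudin of the blood-brain barrier, by 1.04, and Cdh5, vascular cadherin, by 1.26. Of 8 erythroid genes 4 were lower, with Hba-a1, an alpha globin, down by 1.11. Of 10 astrocyte markers 1 was lower, the glutamate transporter Slc1a3, and for the best known, Gfap, the difference was 0.11 (SE 0.20, adjusted p = 0.73). Of 13 neuronal markers 2 were higher and 3 lower, with a median of -0.46. Their summed signal, in which bright probes weigh most, ran from 15.5 to 15.9 at P5 and from 16.5 to 16.8 at P10, without overlap. Their mean log2 level did overlap, from 7.88 to 8.30 at P5 and from 7.61 to 8.12 at P10. The part of neurons in the rise of Arc was not tested. Snap25, a vesicle fusion protein, rose by 1.23, whereas Dcx, doublecortin, fell by 1.12. Of 10 genes of neutrophils and monocytes 4 were above background on none of the arrays and 1 was called lower, and among 7 macrophage genes of the brain's borders Mrc1 fell by 0.87 and Cbr2 rose by 1.14, the latter not called with slide as a random block. The falls of Cldn5, Hba-a1 and Mrc1 were not called with 75th percentile scaling, nor that of Hba-a1 with slide as a random block.

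**Figure D2:**
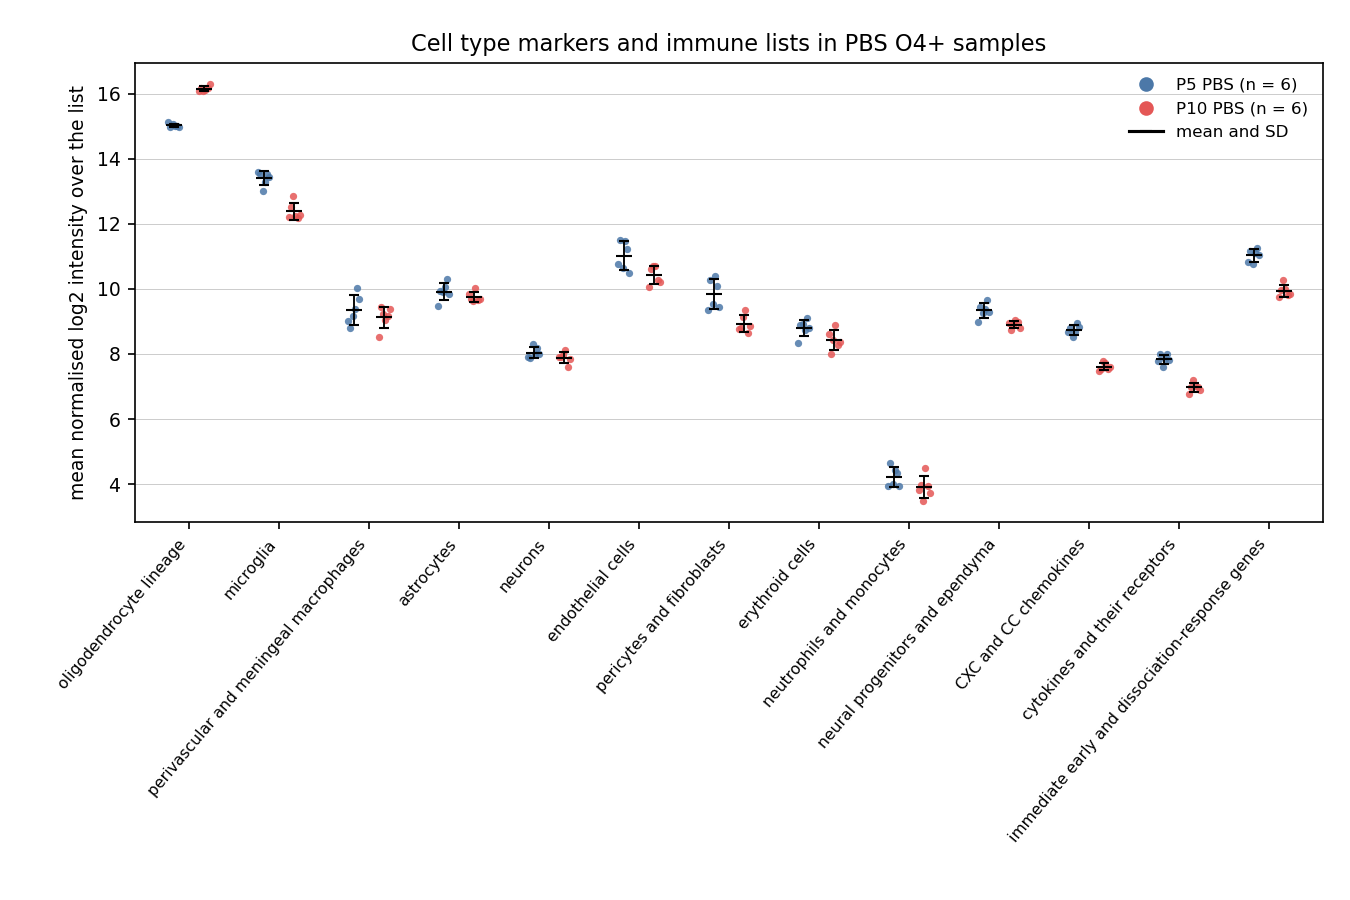
Mean normalised log2 intensity of cell type markers and 3 immune or stress lists on each PBS O4+ array (points; 6 at P5 in blue, 6 at P10 in red) with mean and SD. The lineage markers are higher on all P10 arrays, the means of the microglial, chemokine, cytokine and immediate early lists are lower on all P10 arrays, and the astrocyte and neuron means overlap between the ages.

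The structural proteins of myelin differed widely in how much they rose. Of 27 genes, 19 were called higher and 2 lower, with a median change of 1.75 against -0.01 for all genes. Mobp, a late protein of compact myelin, lay from 7.81 to 11.76 at P5 (median 8.83) and from 16.76 to 17.09 at P10 (median 16.93) on its brightest probe. The P5 arrays spread widely, no P10 array came near them, and the rise was 7.79 log2 units (SE 0.54, adjusted p = 7.6e-07). All 3 Mobp probes rose. In CD11B+ cells this probe was well above background on no P5 array and on all 6 P10 arrays. Mog, a glycoprotein of the outermost lamella and a late marker, lay from 8.34 to 8.69 at P5 (median 8.44) and from 12.73 to 13.51 at P10 (median 13.09). It rose by 4.60 log2 units (SE 0.12, adjusted p = 7.6e-10), with tight groups that did not overlap.

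Mag, the glycoprotein that faces the axon, lay from 14.29 to 14.55 at P5 (median 14.39) and from 16.96 to 17.43 at P10 (median 17.18), and rose by 2.81 log2 units (SE 0.08, adjusted p = 9.9e-10). Cnp, an enzyme of noncompact myelin that appears early, lay from 15.49 to 15.71 at P5 (median 15.56) and from 17.13 to 17.55 at P10 (median 17.24), and its rise was smaller, 1.70 log2 units (SE 0.07, adjusted p = 1.9e-08). Mbp, myelin basic protein, rose by 3.40 log2 units (SE 0.13, adjusted p = 1e-08) on its brightest probe, and the other 2 probes of the gene were not called. Mbp transcripts and those of the Golli unit share a locus, and which of them each probe reads was not settled here.

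Genes of tight junctions, gap junctions and membrane sorting were among those called higher. Cldn11, which seals the myelin lamellae, rose by 2.79 log2 units (SE 0.05, adjusted p = 8.5e-11), and Mal, a proteolipid of membrane sorting, by 4.55 log2 units (SE 0.40, adjusted p = 4.3e-06) with means of 11.01 ± 1.02 at P5 and 15.56 ± 0.13 at P10 (SD, n = 6). The connexins Gjc3 and Gjb1 rose by 1.75 and 1.46. Opalin, a sialylated protein of late oligodendrocytes, lay from 4.02 to 4.83 at P5 (median 4.35) and from 10.46 to 10.84 at P10 (median 10.70). On 5 of 6 P5 arrays it was well above background, and it rose by 6.28 log2 units (SE 0.12, adjusted p = 8.7e-11). Hapln2, which organises the matrix at nodes of Ranvier, was above background on no P5 array and on all P10 arrays, and was at least 17.8-fold higher at P10. Gpr37, a receptor that times differentiation, rose by 3.82, Tspan2, a tetraspanin, by 3.05 and Nfasc, whose glial form binds the axon at the paranode, by 1.80.

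Not every gene with a place in myelin rose. For Omg, the oligodendrocyte myelin glycoprotein, the difference was -0.06 (SE 0.07, adjusted p = 0.56), and for Gpm6b, a membrane glycoprotein, -0.17 (SE 0.06, adjusted p = 0.043). The differences of the tetraspanins Cd9 and Cd81, 0.35 and 0.50, were not called either, although both were with 75th percentile scaling. Pmp22, best known from peripheral myelin, fell by 1.02, and Plp2 by 1.08 log2 units (SE 0.12, adjusted p = 2.9e-05). The fall of Pmp22 was not called with 75th percentile scaling, with slide as a random block or in 9 of the 12 fits that left out 1 array. Ermn, a cytoskeletal protein of late oligodendrocytes, gave unequal answers on its 2 probes. One lay from 6.10 to 6.83 at P5 (median 6.23) and from 11.51 to 11.97 at P10 (median 11.72) and rose by 5.43 log2 units (SE 0.13, adjusted p = 5.4e-10), and the difference of the brighter one was -0.20 (SE 0.35, adjusted p = 0.7).

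**Figure D3:**
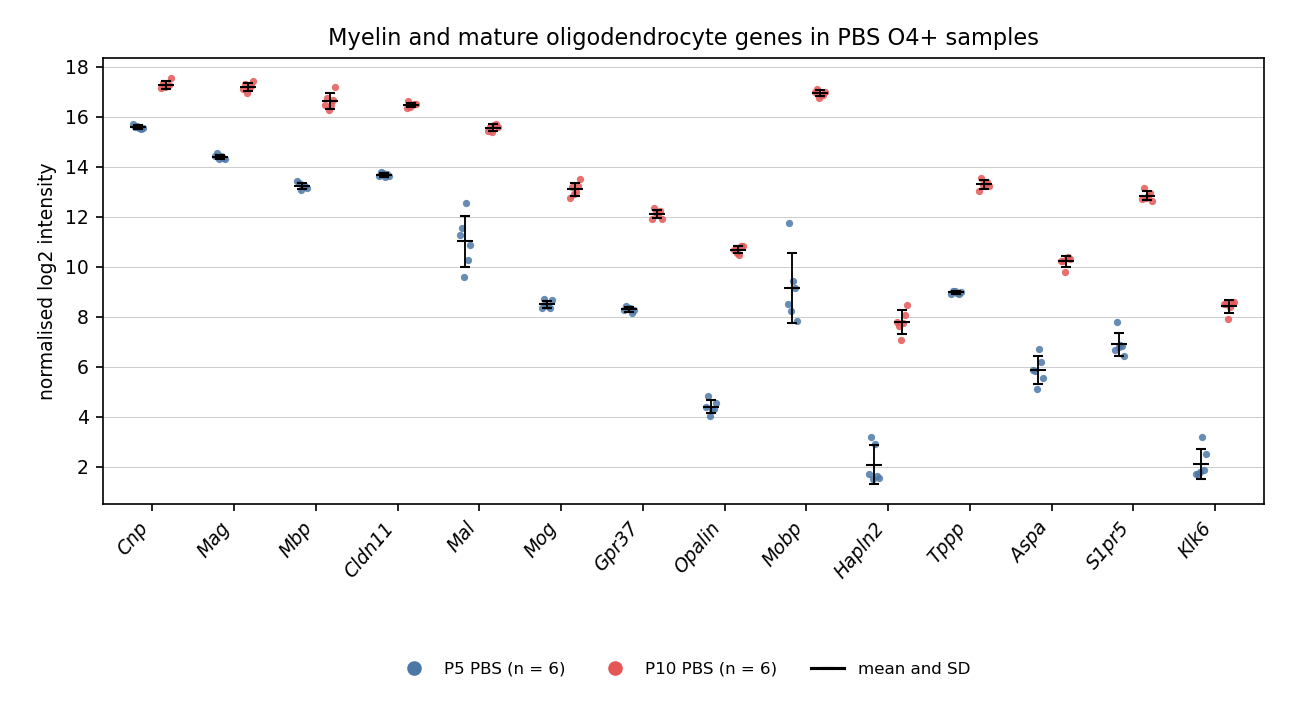
Normalised log2 intensity of 14 myelin and mature oligodendrocyte genes on each PBS O4+ array (points; 6 at P5 in blue, 6 at P10 in red) with mean and SD. In all 14 the P10 arrays lie above the P5 arrays. Heights of different genes cannot be compared, since each is read by its own probe.

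Enzymes and carriers of the mature oligodendrocyte had the highest median change of the lists. Of 30 genes, 26 were called higher and none lower, with a median of 2.15. S1pr5, a sphingosine-1-phosphate receptor, lay from 6.44 to 7.78 at P5 (median 6.80) and from 12.63 to 13.14 at P10 (median 12.80) and rose by 5.95 log2 units (SE 0.19, adjusted p = 2.5e-09). Aspa, aspartoacylase, which frees acetate for lipid synthesis and is lost in Canavan disease, lay from 5.09 to 6.70 at P5 (median 5.84) and from 9.78 to 10.38 at P10 (median 10.27), a rise of 4.34 log2 units (SE 0.23, adjusted p = 8.9e-08). Tppp, which polymerises tubulin, lay from 8.89 to 9.04 at P5 (median 8.98) and from 13.02 to 13.53 at P10 (median 13.30). It rose by 4.32 log2 units (SE 0.08, adjusted p = 5.1e-11). In these 3 genes the ages lay far apart, and the P5 arrays of S1pr5 and Aspa spread more than those of Tppp.

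The gene of the secreted protease Klk6 had no P5 array above background and all 6 P10 arrays above it. Pdlim2 rose by 4.67, Tppp3 by 4.14, Ppp1r14a, an inhibitor of myosin phosphatase, by 4.00, and Gamt, the last enzyme of creatine synthesis, by 3.44 log2 units. Trf, transferrin, which delivers iron, lay from 12.45 to 13.21 at P5 (median 12.97) and from 15.49 to 16.17 at P10 (median 15.89), a rise of 2.88 log2 units (SE 0.14, adjusted p = 5.2e-08). Apod, a lipocalin, rose by 3.00, Gsn, the actin-severing gelsolin, by 2.39 and the carbonic anhydrases Car2 and Car14 by 2.15 and 2.66. Sirt2, a deacetylase of tubulin, rose by 1.45 log2 units (SE 0.08, adjusted p = 1.8e-07). The differences of Evi2a, Anln and Trim59, 0.13, 0.40 and 0.31, were not called.

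Genes of lipid synthesis had a lower median. Of 32 genes of galactolipid and fatty acid synthesis, 16 were higher and 1 lower, with a median of 0.56. Ugt8a makes galactosylceramide, the main glycolipid of myelin, and lay from 12.21 to 12.42 at P5 (median 12.35) and from 13.94 to 14.46 at P10 (median 14.19). It rose by 1.87 log2 units (SE 0.08, adjusted p = 2.3e-08). Gal3st1, which sulfates that lipid to sulfatide, an antigen of O4, rose by 1.19 log2 units (SE 0.05, adjusted p = 9.7e-09), and Fa2h, which hydroxylates its fatty acid, by 1.60 log2 units (SE 0.08, adjusted p = 5.5e-08). Cers2, the synthase of very-long-chain ceramides, rose by 1.40, and the elongases Elovl7 and Elovl1 by 1.92 and 1.32, whereas the difference of Elovl5 was 0.06 (SE 0.08, adjusted p = 0.61). For Fasn, fatty acid synthase, the difference of 0.36 (SE 0.08, adjusted p = 0.0054) was under the fold threshold. Smpd3, a sphingomyelinase, was the one gene called lower, by 0.91.

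Cholesterol synthesis rose at many of its steps. Of 26 genes 14 were higher and none lower, with a median of 0.65. Hmgcs1, at the entrance of the pathway, lay from 15.52 to 15.67 at P5 (median 15.62) and from 16.48 to 16.85 at P10 (median 16.59), a rise of 1.03 log2 units (SE 0.07, adjusted p = 4e-07). The intermediate enzymes Mvd, Lss, Idi1 and Fdps rose by 1.11, 1.06, 0.87 and 0.89. No P10 array of Hmgcs1 overlapped a P5 array. Not called were Sqle, squalene epoxidase, at 0.07 (SE 0.05, adjusted p = 0.41), Srebf2, the regulator of the pathway, at 0.10 (SE 0.09, adjusted p = 0.43) and its escort Scap at 0.02 (SE 0.05, adjusted p = 0.78).

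Of 20 activators of the lineage, 9 rose and 2 fell, with a median of 0.32, and of 0.54 with 75th percentile scaling. Nkx6-2, a homeobox repressor of the myelinating stage, lay from 5.97 to 6.49 at P5 (median 6.33) and from 10.01 to 10.65 at P10 (median 10.25). It rose by 3.99 log2 units (SE 0.11, adjusted p = 1.1e-09). Myrf, the factor required for myelin genes, lay from 6.47 to 6.97 at P5 (median 6.67) and from 8.14 to 9.30 at P10 (median 8.38), a rise of 1.82 log2 units (SE 0.18, adjusted p = 1.1e-05). No array of one age reached those of the other for either gene. St18 and Carhsp1 rose by 1.53 and 1.56, Zfp488 and Zfp536 by 0.93 and 0.93, and Tcf7l2, a Wnt effector of premyelinating cells, by 0.75 on all 3 of its probes. Smad7, an inhibitor of TGF-beta signalling, rose by 1.27. The differences of Nkx2-2 and Sox8, -0.07 and -0.02, were not called. Nfib and the chromatin remodeller Chd7 fell by 0.71 and 0.63, and neither fall was called with 75th percentile scaling, nor that of Chd7 with normexp.

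Of 20 genes in the list of differentiation inhibitors, 10 were lower and 2 higher, with a median of -0.59. Hes5, a Notch target, lay from 14.95 to 15.28 at P5 (median 15.22) and from 13.38 to 14.33 at P10 (median 13.90), a fall of 1.28 log2 units (SE 0.13, adjusted p = 1.7e-05). Sox9 lay from 10.71 to 11.09 at P5 (median 10.94) and from 8.98 to 10.02 at P10 (median 9.51) and fell by 1.44 log2 units (SE 0.17, adjusted p = 4.7e-05). In both, all 6 P10 arrays lay below the P5 arrays. The Id genes, which sequester basic helix-loop-helix factors, fell by 0.92 for Id2, 0.85 for Id4, 0.84 for Id3 and 0.76 for Id1, and Sox11 by 1.01. The call of Id1 was lost in 3 of the 12 fits that left out 1 array. Klf9, a target of thyroid hormone that is also in this list, rose by 1.40 log2 units (SE 0.09, adjusted p = 4.1e-07). The differences of Sox2, Sox5 and Sox6, 0.07, -0.28 and -0.18, were not called.

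Of 18 Notch genes 9 were lower and 1, Rbpj, higher, with a median of -0.53. The call of Rbpj was lost with normexp and in 6 of the 12 fits that left out 1 array. The divergent ligand Dll3 lay from 13.04 to 13.37 at P5 (median 13.13) and from 11.38 to 12.11 at P10 (median 11.76), a fall of 1.43 log2 units (SE 0.12, adjusted p = 3e-06), and the ligand Dll1 fell by 0.86. The glycosyltransferases Mfng and Lfng, which tune the receptors, fell by 1.18 and 0.85, the latter not called with normexp. For the receptors Notch1 and Notch2 the differences of 0.34 and -0.45 were not called, although Notch2 was in 3 of these 12 fits. Of 24 Wnt genes 10 were lower and 2 higher, with a median of -0.44. Wif1, a secreted inhibitor, lay from 6.79 to 7.21 at P5 (median 6.86) and from 4.28 to 5.25 at P10 (median 4.77), a fall of 2.10 log2 units (SE 0.15, adjusted p = 1e-06), and the targets Apcdd1 and Lef1 fell by 1.14 and 0.91, with the call of Lef1 lost in 3 of the 12 fits. For Axin2, a common readout of the pathway, the difference was -0.35 (SE 0.53, adjusted p = 0.66). Daam2 rose by 2.12 log2 units (SE 0.16, adjusted p = 1.5e-06).

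Of 30 OPC genes 15 were lower and 2 higher, with a median of -0.60. Pdgfra lay from 15.65 to 15.98 at P5 (median 15.78) and from 13.98 to 14.93 at P10 (median 14.50), a fall of 1.35 log2 units (SE 0.15, adjusted p = 2.8e-05). Cspg4, the NG2 proteoglycan, lay from 14.60 to 14.86 at P5 (median 14.76) and from 13.02 to 14.05 at P10 (median 13.57), a fall of 1.15 log2 units (SE 0.15, adjusted p = 9.3e-05). For both genes the P10 arrays spread more than the P5 arrays, and none reached them. Fabp7, a fatty acid binding protein of immature glia, fell by 1.56 log2 units (SE 0.11, adjusted p = 8.7e-07), Ednrb, an endothelin receptor, by 1.16 and Cspg5, neuroglycan C, by 0.95, the last not with 75th percentile scaling. Not called were Vcan, versican, at 0.10 (SE 0.06, adjusted p = 0.26), and Matn4 and C1ql1 at -0.23 and -0.23. Neu4, a sialidase, and Tnr, tenascin R, were called higher, by 1.01 and 0.62, and the call of Tnr was lost with normexp and in 6 of the 12 fits that left out 1 array.

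Of 27 genes of committed and premyelinating cells 15 were higher and 1 lower, with a median of 0.70, and of 1.11 with 75th percentile scaling. Casr, the calcium-sensing receptor, lay from 1.57 to 4.76 at P5 (median 2.94) and from 9.73 to 10.34 at P10 (median 10.02) and was well above background on 1 P5 array and on all P10 arrays. It was called higher, and no size is given, since 5 of 6 P5 arrays did not detect it. Enpp6, a choline phosphodiesterase of newly formed oligodendrocytes, rose by 1.29 log2 units (SE 0.10, adjusted p = 1.9e-06), Bcas1, a marker of cells that have just begun to myelinate, by 0.70 log2 units (SE 0.07, adjusted p = 9.1e-06) and Bmp4 by 0.69. Nkain2 rose by 3.39 on all 4 probes, Rras2 by 2.56 and the semaphorin Sema4d by 1.70. The differences of Itpr2 and Fyn, 0.25 and 0.44, were not called, although both were with 75th percentile scaling.

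**Figure D4:**
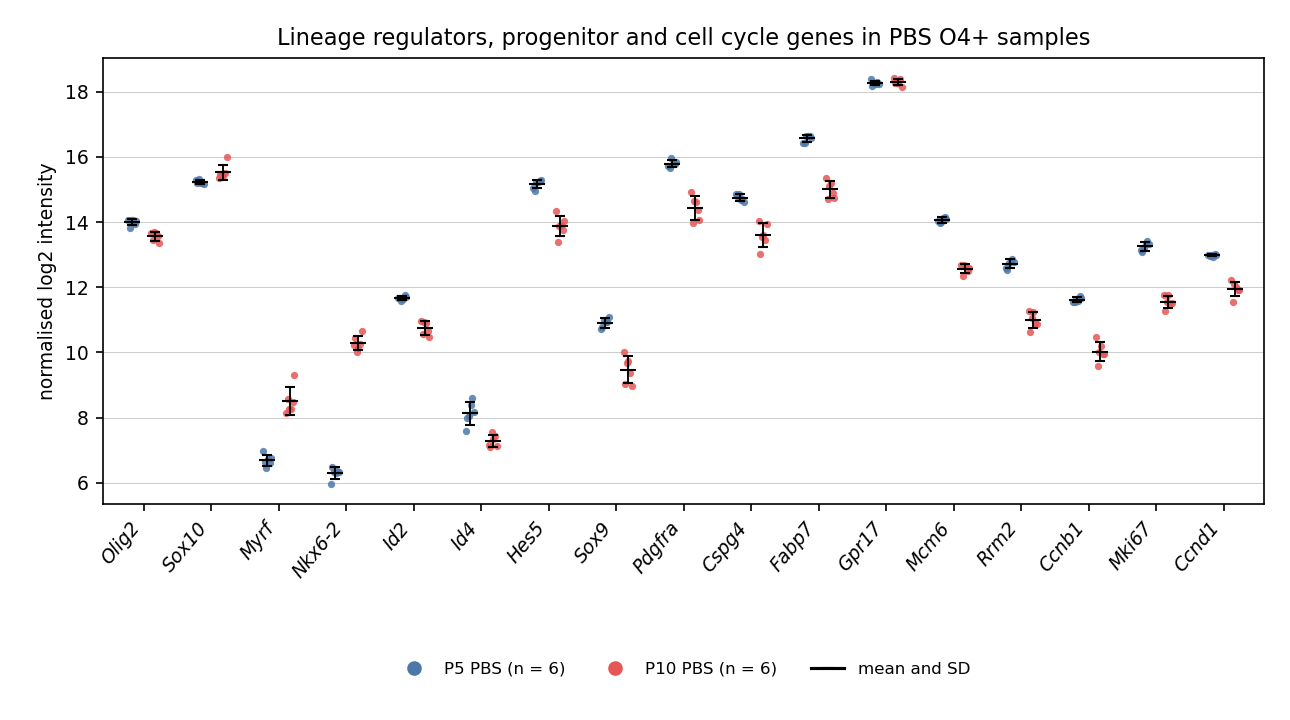
Normalised log2 intensity of lineage regulators, progenitor genes and cell cycle genes on each PBS O4+ array (points; 6 at P5 in blue, 6 at P10 in red) with mean and SD. Myrf and Nkx6-2 are higher on all P10 arrays, Gpr17 overlaps between the ages, and the inhibitors, progenitor and cell cycle genes from Id2 on, Gpr17 apart, are lower on all P10 arrays.

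Most genes of the cell cycle were called lower. So were 5 of the 8 markers of neural progenitors and ependyma and 13 of the 15 microglial markers given above, with 1 of each list higher. On the scale of all 48 arrays the median summed signal of mitosis genes at P5 was 16.3 in O4+ and 17.3 in CD11B+ cells. That of replication genes was 16.8 and 17.6. The part of these other cells in the cell cycle and OPC results was not tested. Of 40 mitosis genes 38 were lower and none higher, with a median of -1.43. Of 38 DNA replication genes 32 were lower and none higher, with a median of -0.87. Mki67, which coats mitotic chromosomes, lay from 13.09 to 13.43 at P5 (median 13.25) and from 11.27 to 11.76 at P10 (median 11.53), a fall of 1.70 log2 units (SE 0.09, adjusted p = 1.1e-07). Ccnb1, the mitotic cyclin, lay from 11.54 to 11.72 at P5 (median 11.61) and from 9.59 to 10.47 at P10 (median 9.98), a fall of 1.59 log2 units (SE 0.12, adjusted p = 1.3e-06). No P10 array reached a P5 array in either. Top2a, a topoisomerase, fell by 1.68 log2 units (SE 0.09, adjusted p = 1.3e-07), and Cdk1, the kinase that drives mitosis, by 1.76 log2 units (SE 0.31, adjusted p = 0.00082), with means of 9.56 ± 0.08 at P5 and 7.80 ± 0.79 at P10 (SD, n = 6). Ttk, a kinase of the spindle checkpoint, had 1 of 6 P10 arrays well above background and was called lower, although not with normexp background correction, and no size is given for it. The 2 mitosis genes that were not called were Aurkb, above background on no array, and Hmmr, at -0.53 (SE 0.07, adjusted p = 8.3e-05), which was called in 3 of the 12 fits that left out 1 array.

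Among the replication genes, Rrm2, a subunit of ribonucleotide reductase, lay from 12.53 to 12.88 at P5 (median 12.76) and from 10.62 to 11.27 at P10 (median 10.98), a fall of 1.73 log2 units (SE 0.11, adjusted p = 4.3e-07). The helicase subunits Mcm2, Mcm3, Mcm5 and Mcm6 fell by 1.07, 1.51, 1.36 and 1.49, and the primase Prim1 by 1.19. Pcna, the sliding clamp, fell by 0.73 and Mcm7 by 0.59, and neither was called with 75th percentile scaling, nor Mcm7 with normexp. Of 23 genes of the G1 phase 14 were lower and none higher. Ccnd1, cyclin D1, lay from 12.94 to 13.02 at P5 (median 12.99) and from 11.56 to 12.22 at P10 (median 11.96), a fall of 1.03 log2 units (SE 0.09, adjusted p = 5.4e-06). Inhibitors of the cycle were among them, Cdkn1a falling by 1.35 on 1 of 3 probes, Cdkn2c by 1.05 and Cdkn1b by 0.65, the last not with 75th percentile scaling. The difference of Cdkn1c was -0.14 (SE 0.08, adjusted p = 0.24).

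The promoters of these genes were searched for short sequence elements. RefSeq windows of 300 bases, from 250 before to 50 after the start of the gene on GRCm38.p6, were read on both strands. The cell cycle homology region, searched as TTTGAA, was in 22 of the 32 mitosis genes with a window (68.8%) and in 20.2% of all 27025 genes. The CCAAT box, searched as CCAAT, was in 25 of these 32 (78.1%), in 17 of 19 cholesterol genes (89.5%), in 18 of 31 replication genes (58.1%) and in 41.1% of all genes. In the other lists its share ran from 16.7% for complement to 83.3% for macrophages of the brain's borders, with 60% for differentiation inhibitors. A site of the E2F type, searched as TTCCCGCC, was in 8 of 31 replication genes (25.8%), in 2 of 19 cholesterol genes (10.5%), in none of the 32 mitosis genes and in 2.52% of all. It was also in 2 of 16 imprinted growth genes and fetal RNA-binding proteins (12.5%) and in 1 of 4 lineage markers (25%). None of the 3 motifs contains another, and a match of letters does not show that a factor binds. The windows of 3 mitosis genes are shown since each holds both of the first elements. Capitals mark every match of the 3 motifs on either strand, and the windows run 5′ to 3′ on the strand of the gene.
Ttk, chr9:83834439-83834738, plus strand: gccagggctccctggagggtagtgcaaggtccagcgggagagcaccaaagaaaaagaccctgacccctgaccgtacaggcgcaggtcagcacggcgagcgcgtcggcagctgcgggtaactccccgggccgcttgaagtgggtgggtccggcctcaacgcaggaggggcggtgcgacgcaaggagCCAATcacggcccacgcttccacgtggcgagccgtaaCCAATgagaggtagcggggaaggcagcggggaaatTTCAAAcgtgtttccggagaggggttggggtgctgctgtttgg
Cdk1, chr10:69352863-69353162, minus strand: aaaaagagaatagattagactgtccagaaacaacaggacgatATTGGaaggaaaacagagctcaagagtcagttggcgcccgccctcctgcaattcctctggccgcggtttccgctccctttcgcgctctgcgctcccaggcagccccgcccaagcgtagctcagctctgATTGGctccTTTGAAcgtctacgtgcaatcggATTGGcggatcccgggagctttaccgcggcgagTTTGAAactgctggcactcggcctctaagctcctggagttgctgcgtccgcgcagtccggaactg
Mki67, chr7:135716330-135716629, minus strand: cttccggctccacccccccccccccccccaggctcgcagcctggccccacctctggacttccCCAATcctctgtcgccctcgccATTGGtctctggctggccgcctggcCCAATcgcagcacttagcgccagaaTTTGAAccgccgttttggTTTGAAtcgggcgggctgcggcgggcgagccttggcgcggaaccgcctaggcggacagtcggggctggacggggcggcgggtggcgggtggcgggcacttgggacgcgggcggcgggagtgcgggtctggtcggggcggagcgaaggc

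In the same form, 2 replication genes are shown for the E2F type site and 2 cholesterol genes for the CCAAT box. Prim1 and Mcm3 fell and Mvd and Lss rose, as given above.
Mcm3, chr1:20820263-20820562, minus strand: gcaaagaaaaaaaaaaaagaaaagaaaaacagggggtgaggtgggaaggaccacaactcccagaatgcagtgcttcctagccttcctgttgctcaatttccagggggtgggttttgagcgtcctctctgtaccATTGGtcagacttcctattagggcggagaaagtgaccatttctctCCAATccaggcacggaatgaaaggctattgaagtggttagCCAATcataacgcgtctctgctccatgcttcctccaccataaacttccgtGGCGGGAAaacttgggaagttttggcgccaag
Prim1, chr10:128014965-128015264, plus strand: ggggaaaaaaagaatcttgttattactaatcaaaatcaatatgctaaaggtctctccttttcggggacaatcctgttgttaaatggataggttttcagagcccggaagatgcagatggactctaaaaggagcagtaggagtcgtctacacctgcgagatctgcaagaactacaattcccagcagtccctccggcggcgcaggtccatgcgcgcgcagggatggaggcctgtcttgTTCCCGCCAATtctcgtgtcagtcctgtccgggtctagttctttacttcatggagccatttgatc
Mvd, chr8:122443373-122443672, minus strand: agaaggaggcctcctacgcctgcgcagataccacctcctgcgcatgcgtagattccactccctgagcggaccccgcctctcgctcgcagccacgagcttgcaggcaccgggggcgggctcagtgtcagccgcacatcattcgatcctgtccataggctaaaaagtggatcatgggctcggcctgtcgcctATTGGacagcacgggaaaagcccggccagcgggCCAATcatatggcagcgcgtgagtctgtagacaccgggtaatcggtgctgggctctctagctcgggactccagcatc
Lss, chr10:76531355-76531654, plus strand: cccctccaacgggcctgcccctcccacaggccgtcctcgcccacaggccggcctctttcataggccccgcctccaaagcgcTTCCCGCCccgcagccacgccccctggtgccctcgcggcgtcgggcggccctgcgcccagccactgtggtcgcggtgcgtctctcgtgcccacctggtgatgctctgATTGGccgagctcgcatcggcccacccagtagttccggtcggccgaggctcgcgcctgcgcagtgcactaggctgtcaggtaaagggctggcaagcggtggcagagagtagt

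Of 39 signalling receptors 9 were higher and 14 lower. Lpar1, a lysophosphatidic acid receptor, lay from 6.80 to 7.47 at P5 (median 7.17) and from 9.81 to 10.92 at P10 (median 10.36), a rise of 3.21 log2 units (SE 0.19, adjusted p = 2.3e-07). The netrin receptor Unc5b rose by 1.93 and Fgfr2 by 1.13, whereas Fgfr1 fell by 0.98 and Egfr by 1.37. Chrm1, a muscarinic receptor, fell by 1.55 log2 units (SE 0.14, adjusted p = 5.6e-06), and Adora1, an adenosine receptor, by 1.03. Of 33 ion channels and pumps 2 were higher and 17 lower, with a median of -0.63. Kcnj10, the inward rectifier Kir4.1, rose by 0.81 log2 units (SE 0.05, adjusted p = 2.8e-07), and Kcna1 by 1.57, whereas the A-type potassium channel Kcnd2 fell by 1.32 log2 units (SE 0.13, adjusted p = 1.3e-05). The sodium channels Scn1a and Scn3a fell by 0.95 and 0.84. Scn8a fell by 2.41 on its brightest probe, but the median over its 3 probes was a rise of 0.46. Of 24 glutamate receptor subunits 6 were lower and 1 higher. For Gria2, the subunit that limits calcium entry, the difference was -0.18 (SE 0.13, adjusted p = 0.35), and the NMDA subunit Grin3a fell by 0.82 log2 units (SE 0.11, adjusted p = 0.00011).

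Of 40 genes of the cytoskeleton and process outgrowth 19 were higher and 4 lower, with a median of 0.48, and of 0.85 with 75th percentile scaling. Map7 and Cdc42ep2 rose by 2.92 and 2.92, the kinesin Kif21a by 1.65 and the tubulin Tubb4a by 0.98 log2 units (SE 0.12, adjusted p = 7.3e-05). Not called were Actb at -0.06 (SE 0.06, adjusted p = 0.48) and Tubb2b at -0.01 (SE 0.05, adjusted p = 0.89). The collapsin response mediators Dpysl3 and Dpysl5 fell by 1.16 and 1.36. Of 34 matrix genes 16 were lower and 8 higher. Lamb1, a laminin, fell by 1.46 log2 units (SE 0.25, adjusted p = 0.0007), the collagens Col1a1 and Col1a2 by 1.23 and 1.03, and Ncan, neurocan, by 0.96, whereas Col20a1 and Col11a2 rose by 1.96 and 1.37. The fall of Col1a2 was not called with slide as a random block. Col1a1 and Col1a2 are also in the marker list of pericytes and fibroblasts above. For Bcan, brevican, the difference was 0.10 (SE 0.05, adjusted p = 0.2).

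Genes of fetal growth were lower as a list. Of 23 imprinted growth genes and fetal RNA-binding proteins 14 were lower and none higher, with a median of -0.84. Lin28b, which blocks maturation of let-7 microRNAs, lay from 7.83 to 8.21 at P5 (median 7.92) and from 5.33 to 6.01 at P10 (median 5.70), a fall of 2.27 log2 units (SE 0.12, adjusted p = 1.3e-07). Igf2bp3, a fetal RNA-binding protein, fell by 2.04 log2 units (SE 0.07, adjusted p = 5.3e-09), the noncoding H19 by 1.92 on its brightest probe and on 6 of 7 probes, and Grb10 and Mest by 1.89 and 1.58. In Lin28b the groups did not overlap. Of 17 genes of iron handling 4 were higher and 4 lower. Besides Trf, Fth1, the ferritin heavy chain, rose by 0.71 log2 units (SE 0.09, adjusted p = 7e-05), and Slc40a1, the iron exporter, and Hmox1, which frees iron from heme, fell by 1.11 and 0.95. Of 25 glycolysis genes 2 were higher and 2 lower, with a median of 0.00, and of 0.29 with 75th percentile scaling. For Gapdh the difference was 0.25 (SE 0.05, adjusted p = 0.0011), and it was 0.66 and called higher with 75th percentile scaling. Slc16a7, a monocarboxylate transporter, rose by 1.13 log2 units (SE 0.07, adjusted p = 1.9e-07).

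The largest falls of single immune genes were in chemokines and cytokines. Of 28 chemokines 16 were lower and none higher, with a median of -0.83. Cxcl1, a neutrophil attractant, lay from 9.24 to 10.31 at P5 (median 9.66) and from 4.55 to 5.94 at P10 (median 5.40), a fall of 4.29 log2 units (SE 0.24, adjusted p = 1.5e-07). Ccl3 lay from 12.09 to 12.87 at P5 (median 12.74) and from 8.73 to 9.88 at P10 (median 9.51), a fall of 3.16 log2 units (SE 0.20, adjusted p = 3.1e-07). Cxcl10, which interferon induces, lay from 10.80 to 11.54 at P5 (median 11.47) and from 7.76 to 8.90 at P10 (median 8.14), a fall of 3.03 log2 units (SE 0.22, adjusted p = 1.2e-06). In these 3 the ages did not overlap. The chemokines Cxcl2, which 4 of 6 P10 arrays detected, Ccl4, Ccl7 and Ccl2 fell by 4.24, 2.83, 2.61 and 2.19, and Cx3cl1, fractalkine, by 0.93. The differences of Cxcl12 and Cxcl11, 0.14 and 0.01, were not called. Of 33 cytokine genes 17 were lower and 1, Il33, higher, by 1.05. Il1b lay from 9.76 to 10.68 at P5 (median 10.40) and from 5.77 to 7.18 at P10 (median 6.24), a fall of 3.96 log2 units (SE 0.26, adjusted p = 5.1e-07), and Tnf lay from 10.60 to 11.34 at P5 (median 11.03) and from 7.13 to 8.42 at P10 (median 7.81), a fall of 3.20 log2 units (SE 0.21, adjusted p = 4.3e-07). Neither gene overlapped between the ages. Since only the P5 cells were taken shortly after an injection, that interval and age cannot be told apart for the immune genes here and below.

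The receptors Il6ra and Il10ra fell by 1.17 and 1.39, and the IL1 receptor Il1r1 lay from 5.91 to 6.82 at P5 (median 6.51) and from 4.58 to 6.28 at P10 (median 5.51), a fall of 0.99 log2 units (SE 0.27, adjusted p = 0.014) with overlapping ranges, which was not called with normexp or with slide as a random block. Of 19 complement genes 10 were lower and 1 higher. C1qa, C1qb and C1qc, which are also microglial markers, fell by 1.32, 1.43 and 1.54, Itgax by 3.24, and the difference of C3 was 0.21 (SE 0.07, adjusted p = 0.039). Of 36 interferon-inducible genes 11 were lower and 1 higher, with a median of -0.30. Irf8, a factor of myeloid cells, fell by 1.59, B2m, the light chain of MHC class I, by 1.14 log2 units (SE 0.14, adjusted p = 4.5e-05) and Irf1 by 1.40, whereas Mx2 rose by 1.56 log2 units (SE 0.10, adjusted p = 3.5e-07). The difference of Isg15, -0.52, was not called. Beside these lists stand the microglial markers, of which 13 of 15 were lower with a median of -1.24.

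Immediate early and dissociation-response genes, induced within minutes of a stimulus, were lower in 20 of 26 and higher in 1, with a median of -1.25. Fos lay from 11.82 to 12.38 at P5 (median 12.09) and from 9.61 to 10.25 at P10 (median 9.88), a fall of 2.17 log2 units (SE 0.13, adjusted p = 2.1e-07). Egr1 lay from 13.51 to 14.12 at P5 (median 13.90) and from 10.81 to 11.50 at P10 (median 11.11), a fall of 2.72 log2 units (SE 0.15, adjusted p = 1.2e-07). Atf3 and Btg2 fell by 2.51 and 1.98, and Jun by 0.69, the last not with 75th percentile scaling. Neither Fos nor Egr1 overlapped between the ages. The P5 cells were taken shortly after an injection and the P10 cells were not, so the interval since handling and age cannot be told apart. Beside this list 13 of 15 microglial markers were lower and 1 was higher, with a median of -1.24. On the scale of all 48 arrays the median summed signal of the list at P5 was 17.7 in O4+ and 19.6 in CD11B+ cells. The part of microglia in this result was not tested. The chaperone genes Hsp90aa1 and Dnajb1 were not called, at -0.18 (SE 0.04, adjusted p = 0.0073) and -0.19 (SE 0.05, adjusted p = 0.015).

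Where the change with age in O4+ cells differed from that in CD11B+ cells was tested by an interaction on arrays normalised over all 48. The term was more positive in 7610 probes (13.7%) and more negative in 8046 (14.5%), and with 1 probe per gene in 3821 genes (15.9%) and 4695 genes (19.5%). With 75th percentile scaling it was positive in 10704 probes and negative in 5940, so the split depends on the scale. Mature oligodendrocyte enzymes and carriers had a more positive change in O4+ cells in 23 of 30 genes and a more negative one in 1, with median changes of 2.25 in O4+ and 0.08 in CD11B+ cells. Mitosis genes had a more negative change in 39 of 40, with medians of -1.49 and -0.19. OPC genes did so in 24 of 30, with -0.63 and 0.38, and immediate early genes in 22 of 26, with -1.29 and 0.16. These shares stand beside 15.9% and 19.5% of all genes.

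Of the 5 listed genes with the largest fitted positive terms, Aspa, 5.90 (SE 0.26, adjusted p = 3.9e-13), and S1pr5, 5.70 (SE 0.24, adjusted p = 1.4e-13), were well above background on all 6 arrays of each group. Klk6, Hapln2 and Casr were above it on no array of at least 1 of the 4 groups, and no term is given for them. In CD11B+ cells the level of Aspa was 8.32 ± 0.07 at P5 and 6.88 ± 0.29 at P10 (SD, n = 6), opposite in direction to O4+ cells. Among the 5 largest negative terms were those of Tnf, -2.76 (SE 0.27, adjusted p = 6.1e-08), Il1a, -2.71 (SE 0.28, adjusted p = 1.2e-07), Socs3, -2.63 (SE 0.19, adjusted p = 6.3e-10), and Il1b, -2.60 (SE 0.37, adjusted p = 7.7e-06). Structural myelin genes had positive medians in both sorts, of 1.85 and 1.28, and 11 of 27 had a more positive and 3 a more negative change in O4+ cells. For Il1b both differences were negative, -4.08 in O4+ and -1.48 in CD11B+ cells. Socs3, a feedback inhibitor of cytokine signals, had differences of -1.23 in O4+ and 1.40 in CD11B+ cells. Of the 15 microglial markers 14 had a more negative change in O4+ cells.

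**Figure D5:**
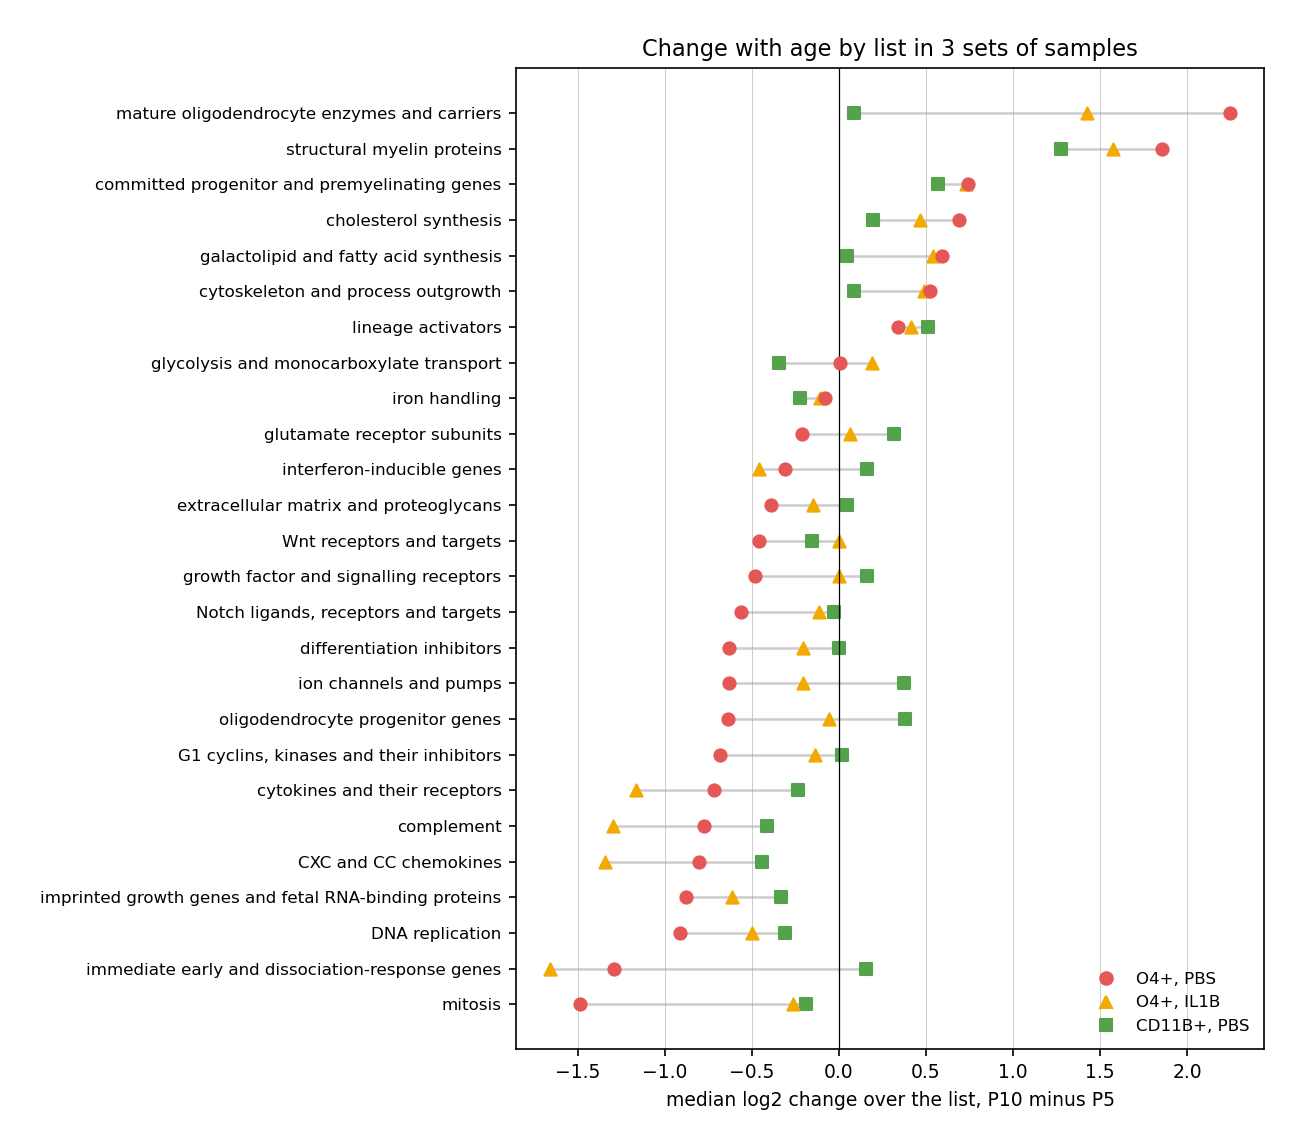
Median log2 change from P5 to P10 (horizontal axis) of 26 gene lists in O4+ cells after PBS (circles), O4+ cells after IL1B (triangles) and CD11B+ cells after PBS (squares), 6 arrays per age in each. Circles and squares use arrays normalised over all 48 and triangles those normalised over the 24 O4+ arrays. Mitosis stands at -1.49, -0.26 and -0.19, and mature oligodendrocyte enzymes and carriers at 2.25, 1.43 and 0.08.

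After IL1B the change with age took other values. The 12 PBS arrays serve both as the comparison above and as the reference here, so the changes are set side by side and only the interaction is tested. The change with IL1B minus that with PBS was positive in 4361 probes (7.83%) and negative in 2961 (5.32%), and with 1 probe per gene in 2787 genes (11.6%) and 1620 genes (6.74%). With 75th percentile scaling it was positive in 2888 and negative in 4938 probes, so this split turns with the scale. Mitosis genes fell less after IL1B, with a positive term in 38 of 40 genes and medians of -1.43 with PBS and -0.26 with IL1B. In DNA replication 29 of 38 terms were positive, with medians of -0.87 and -0.50, and in OPC genes 17 of 30, with -0.60 and -0.06. Of 11 endothelial markers 4 had a positive term and none a negative one, with medians of -0.65 with PBS and 0.06 with IL1B. The 10 markers of pericytes and fibroblasts had a median term of 0.83, and no single term was called. The part of these cells in the terms of the other lists was not tested.

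Among mature oligodendrocyte enzymes and carriers 7 of 30 terms were negative and none positive, with medians of 2.15 and 1.43, and in structural myelin genes 2 were positive and 2 negative of 27. With IL1B the level of Ccnb1 was 11.27 ± 0.16 at P5 and 11.10 ± 0.21 at P10 (SD, n = 6), a difference of -0.17, and its term was 1.42 (SE 0.16, adjusted p = 6.1e-06). For Pdgfra the term was 1.00 (SE 0.18, adjusted p = 0.00091) and for Trf -1.68 (SE 0.20, adjusted p = 1.1e-05). The largest positive terms among listed genes were those of Degs2, 2.12 (SE 0.28, adjusted p = 2.9e-05), Itgax, 1.94 (SE 0.55, adjusted p = 0.02), Wif1, 1.88 (SE 0.24, adjusted p = 2.3e-05), Lef1, 1.83 (SE 0.24, adjusted p = 2.3e-05), and Cenpf. For Cenpf no term is given, since 5 of 6 P10 arrays after PBS did not detect it, and that of Itgax was not called with slide as a random block. Degs2 had means of 5.62 with IL1B and 7.64 with PBS at P5, and of 7.88 and 7.78 at P10. Lef1 had means of 8.90 and 10.68 at P5, and of 9.83 and 9.77 at P10. In these 2 genes the treatments thus lay far apart at P5 and close together at P10. Wif1 was lower with IL1B at P5 and higher at P10, and Itgax was higher with IL1B at P10. The P5 cells were taken 2 h after an injection by the labels, and the part of that interval in the terms was not tested. Of the 5 genes with the largest fitted negative terms, Lcn2, -6.26 (SE 0.31, adjusted p = 1.3e-10), and Ccl12, -3.22 (SE 0.20, adjusted p = 1.7e-09), were above background on every array, and S100a8, -3.39 (SE 0.89, adjusted p = 0.013), on all but 2 P10 arrays after PBS. Mmp8 and Csf3 were above it on no PBS array, and no term is given for them. Ccl12 was the one of the 5 called with PBS, a fall of 1.29. Lcn2, Mmp8 and S100a8 are markers of the neutrophil and monocyte list, of which 5 of 10 had a negative term and none a positive one, and 8 of 15 microglial markers had a negative term and none a positive one. The part of these cells in the terms was not tested. Lcn2, an iron-binding acute-phase protein, was at 12.82 ± 0.53 at P5 and 6.39 ± 0.49 at P10 (SD, n = 6) with IL1B, against 6.18 ± 0.27 at P5 and 6.01 ± 0.20 at P10 with PBS.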

How the data were processed

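RNA of 48 samples was hybridised to 1-colour Agilent 8x60K mouse arrays, 6 arrays per group, and the 12 PBS O4+ arrays carry this report. The deposited intensities per spot were made with Feature Extraction 10.7.3.1 per the file headers, which subtracts background and detrends, and the study's methods give pools of 3 brains per sample. A deposited matrix holds ratios of each spot's signal to its array's median, made by the authors, and served as an alternative. Coordinates of probes on the arrays are of mm9.

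Spots marked non-uniform were left out (32 on the 12 arrays). The log2 signals were quantile-normalised over the 24 O4+ arrays, or over all 48 for the comparison with CD11B+ cells, and averaged per probe (55681 probes). Of these, 33180 were given a gene symbol, 27229 of them through a RefSeq transcript accession and the rest through the gene name in the files or a synonym. In all, 24038 genes were read by the probe with the highest mean. The difference of P10 and P5 was fitted with limma 3.58.1 in R 4.3.3 on the 12 arrays, with no covariate, and each interaction on the 24 arrays it compares, at an adjusted p of 0.05 with no fold threshold. Scripts were tested on simulated data. The number of arrays limits the precision.

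Genes are named from 26 gene lists and 10 marker lists, from the 15 largest rises and falls among separated probes above background on all 12 arrays, from 5 genes per direction seen at 1 age alone and from 5 listed genes per direction of each interaction. Members and lists were chosen with earlier results of these data known. Where a gene was above background on no array of an age, a bound replaces the fold. Where a gene was above it on some but fewer than 3 of the 6 arrays of a group, no size is given. Some genes the rule names are not reported here. Alternatives were 75th percentile scaling, other quantile sets, normexp with an offset of 50, the matrix, a filter to probes above background on 6 arrays, the methods' t-test, no fold threshold, slide, scan day or replicate number as a block, the median over probes and leaving out each array.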

Additional observations from a re-analysis of the deposited data

Results flagged for a closer look

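In 38 of the gene values of 1 age, 13 at P5 and 25 at P10 of 256 tested at each, 1 array lay far from the other 5, judged by its gap to the nearest array over the range of the 6. Chance gives this in about 1 of 20 groups. The outlying array was replicate 6 at P10, the one on slide 5, in 18 of them. It was the lowest with a gap over range of 0.953 for Axin2, 0.741 for Cd9, 0.651 for Cdk1, 0.774 for Col19a1, 0.760 for Cxcl11, 0.796 for Elovl5, 0.655 for Ermn, 0.681 for Gria2, 0.677 for Neu4, 0.699 for Pcna, 0.659 for Smad7 and 0.656 for Sox8. It was the highest with 0.809 for Dnajb1, 0.972 for Mmp8, 0.662 for Mvd, 0.626 for Myrf, 0.769 for Sox10 and 0.664 for Srebf2. Replicate 2 at P5 was the outlying array in 8, the highest with 0.638 for Cldn14, 0.679 for Ermn (probe A_55_P2060158), 0.642 for Kndc1, 0.650 for Lcn2, 0.668 for Mobp (probe A_51_P291224), 0.695 for S1pr5 and 0.737 for Wif1, and the lowest with 0.720 for Dcx. In the mean of the interferon-inducible genes at P10, replicate 4 was the lowest, with a gap over range of 0.705.

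The other 12 values were spread over the remaining arrays. The gap over range was 0.678 for Actb (replicate 6 at P5, highest), 0.720 for Aspa (replicate 3 at P10, lowest), 0.843 for C1qc (replicate 3 at P10, highest), 0.632 for Egfr (replicate 4 at P10, highest) and 0.696 for Gem (replicate 3 at P5, lowest). It was 0.644 for Gp2 (replicate 2 at P10, highest), 0.639 for Hmga2 (probe A_55_P2043921) (replicate 5 at P5, highest), 0.679 for Klk6 (replicate 3 at P10, lowest), 0.825 for Mcm2 (replicate 2 at P10, highest) and 0.773 for Mrc1 (replicate 1 at P10, lowest). It was 0.691 for Sox5 (replicate 3 at P5, highest) and 0.638 for Trf (replicate 3 at P5, lowest).

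The change from P5 to P10 differed between cell types and between treatments by the test of the interaction in limma. Between O4+ and CD11B+ cells after PBS it differed in 15656 probes, more positive in 7610 and more negative in 8046. Among the largest terms of listed genes above background on at least 3 of 6 arrays of all 4 groups were 5.90 for Aspa and 5.70 for S1pr5, and -2.76 for Tnf, -2.71 for Il1a, -2.63 for Socs3 and -2.60 for Il1b. Between IL1B and PBS in O4+ cells it differed in 7322 probes, more positive in 4361 and more negative in 2961. Chosen in the same way, the terms for it were 2.12 for Degs2, 1.94 for Itgax, 1.88 for Wif1 and 1.83 for Lef1, and -6.26 for Lcn2, -3.39 for S100a8 and -3.22 for Ccl12. Both comparisons share the 12 PBS O4+ arrays.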

How the results depend on the processing

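The 9377 calls between P10 and P5 became 4785 with normexp correction (2248 higher, 2537 lower) and 18942 with no fold threshold (9686 and 9256), and stayed within 1.5 times under the other settings run, between 7234 with slide or scan day as a random block (3495 higher, 3739 lower) and 10326 with 75th percentile scaling (5735 and 4591). That scaling left 2888 positive and 4938 negative terms for IL1B minus PBS. Without any 1 array the calls ran from 8745 to 9506, those for the CD11B+ interaction from 14855 to 17265 and those for the IL1B interaction from 6307 to 8627. The methods' t-test gave 9046 calls after Benjamini-Hochberg adjustment. The cause of these differences was not tested.

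Replicate numbers at P5 and P10 share only a number: same-numbered arrays deviated together with correlations of -0.04 to 0.05, and 3 of 6 were best with their own number. The replicate block gave 9000 calls (4225 higher, 4775 lower), 15904 for the CD11B+ interaction and 7194 for the IL1B interaction. Correlations of same-numbered O4+ and CD11B+ arrays ran from 0.02 to 0.13 at P5, with 4 of 6 best with their own number, and from 0.03 to 0.15 at P10, with 5 of 6. No source used here says that a number marks the same animals in both sorts. Those of PBS and IL1B arrays ran from 0.02 to 0.11 at P5, with 2 of 6, and from -0.02 to 0.48 at P10, with 1 of 6.

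Of 256 named gene values, 239 kept direction and call with 75th percentile scaling, 247 with normexp and 251 with slide as a block. As the median over all probes of a gene, which has no test, 254 kept direction, and Scn8a reversed to 0.46 and Gxylt2 to 0.34. Not called with normexp were Cenpf, Chd7, Il1r1, Irf4, Lfng, Mcm7, Rbpj, Tnr and Ttk, and with slide as a block Cbr2, Col1a2, Hba-a1, Il1r1 and Pmp22. Leaving out 1 array ended the call of Id1, Lef1, Pmp22, Rbpj or Tnr in 3 to 9 of 12 cases and added Hmmr and Notch2 in 3 each. Of the 36 list medians, 16 moved by more than the spread between replicates with 75th percentile scaling, and 16 with the deposited matrix of ratios. With that scaling those that moved by over 1.5 times became 1.11 for committed progenitors, 0.85 for the cytoskeleton, 0.54 for lineage activators, 0.29 for glycolysis, -0.04 for extracellular matrix genes, -0.09 for glutamate receptor subunits and -0.31 for signalling receptors. With normexp they became -0.29 for complement, -0.40 for cytokines, -0.12 for glutamate receptor subunits, -0.28 for signalling receptors, -0.49 for neural progenitors and ependyma and -0.07 for neurons. Over all probes that of the lineage markers became 0.30 and that of extracellular matrix genes -0.61. The median of glycolysis, close to 0, turned to -0.03 with normexp and in 4 of 12 cases without 1 array, and no other list median changed sign. For the IL1B interaction, Itgax was not called with slide as a block.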
